A study of Mus musculus with 26 samples.

Results

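The genes described here encode the subunits of the mitochondrial respiratory chain and of ATP synthase, from the mitochondrial genome and from the nucleus. They were taken by name: mitochondrial names that begin with mt-Nd, mt-Co, mt-Cytb or mt-Atp, and nuclear names of the Nduf, Sdh, Uqcr, Cox4 to Cox8 and Atp5 series. A mean of at least 10 counts over the 26 libraries was required, and genes at 91 to 119 Mb of chromosome 3 or at 95.2 to 97.2 Mb of chromosome 11 were left out. Of the 55141 genes counted, 94 remained, 10 mitochondrial and 84 nuclear. The nuclear genes comprised 40 of complex I, 4 of complex II, 8 of complex III, 16 of complex IV and 16 of complex V, and the mitochondrial genes comprised 5, none, 1, 3 and 1 of the same complexes. Another 19 names that begin in the same way were left out: 11 for a mean under 10 counts, 6 for a pseudogene name that ends in a number, and 2 for their position (Atp5g1 and Atp5pb). Just above the limit were Cox5b-ps with a mean of 11.0 counts and mt-Atp8 with 11.4, and just below it were Ndufs6b with 2.31 and mt-Nd3 with 2.19. Of the members, 5 carry a pseudogene name without a number (Ndufa12-ps, Ndufb1-ps, Ndufs5-ps, Cox5b-ps and Atp5pb-ps). The sources used here do not give how reads were divided between these and their parent genes, so their values are uncertain. For Ndufb1-ps no gene named Ndufb1 was among the matching names. The gene mt-Atp6 was not analysed here.

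Complexes I to IV of the respiratory chain pass electrons from NADH and succinate to oxygen. Complexes I, III and IV pump protons across the inner mitochondrial membrane, and complex V, the ATP synthase, uses the returning protons to make ATP. The mitochondrial genome encodes a few core subunits of complexes I, III, IV and V, transcribes them from both strands as long precursors, and depends on nuclear genes for its polymerase, its ribosome and all other subunits. Complex II is encoded in the nucleus alone. The complexes are built from subunits of both origins, so the levels of mitochondrial and nuclear transcripts can be set side by side in the same RNA.

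Gastruloids are grown from aggregated mouse embryonic stem cells and lengthen while posterior embryonic tissues form in them. Polyadenylated RNA was sequenced from 8 lines in 26 libraries that form 15 groups of line and stage, and 8 of these groups hold 1 library. Every line carried the alleles Del/Del(i9-13) of HoxB. The line with no further allele is called Del. Ins carried Ins(CBS5-10) as well. InsDel5to10, InsDel8to10 and InsDel7to10 carried this insertion with Del(CBS5-10), Del(CBS8-10) and Del(CBS7-10). InvClone1 and InvClone2 are clone 1 and clone 2 of the insertion with Inv(CBS5-10), and InvDel7to10 carried the insertion, the inversion and Del(CBS7-10). No line without the HoxB deletion was analysed here, so all values below are of mutant gastruloids. The 120h stage held 4 libraries of InvClone1, 3 of Ins and 3 of Del. It held 2 of InvClone2, 2 of InsDel5to10, 2 of InsDel7to10, 1 of InvDel7to10 and 1 of InsDel8to10. The 144h stage held 2 of InvClone1 and 1 of each of InvDel7to10, InsDel8to10, Ins and Del, and InvClone1 alone had 1 library at 96h and 1 at 168h.

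The labels give each library 1 of 4 names. Replicates 1 and 2 of Del and Ins at 120h were ISML_first. Replicate 3 of both, replicate 4 of InvClone1 at 120h, replicate 2 of InvClone1 at 144h and all libraries of InsDel8to10, InvDel7to10 and the 144h stage of Del and Ins were ISML_second. InsDel5to10, InsDel7to10, InvClone2 and the remaining InvClone1 libraries were ISML_third, except replicates 2 and 3 of InvClone1 at 120h, which were TruSeq_second. Per the labels' protocols those last 2 were made with the TruSeq Stranded mRNA kit and the others with the ISML kit. Whether replicates are separate cultures is not stated in the labels, so p-values reflect only how far these samples spread, and that spread may be technical. In bulk RNA, fewer cells of a type and less RNA per cell cannot be told apart.

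Total counts ran from 18746411 to 37716547 per library (median 22616412). Replicate 2 of InvClone1 at 144h stood apart through its mitochondrial counts, described below, and replicate 2 of InvClone1 at 120h through 54.8% of all genes with at least 1 count against 37.5% to 43.4% in the others. The counts of genes that passed in comparisons that use either are given with and without it. The label gastruloid was met by tailbud and presomitic markers in all libraries: the summed level of 6 tailbud genes such as T and Cdx2 ran from 43.8 to 620 CPM (counts scaled to the TMM-adjusted library size), lowest at 168h and highest at 96h. Endoderm, endothelial and cardiac markers differed with the library name and are given beside those comparisons.

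The most abundant mitochondrial transcript was mt-Co1, which encodes the catalytic core of complex IV. Per kilobase of gene its median over the 26 libraries was 2387 CPM, followed by mt-Nd1 with 1520 and mt-Cytb with 1425. The complex I genes mt-Nd2, mt-Nd5 and mt-Nd4 had medians of 680, 606 and 426 CPM per kilobase. These 6 genes held mean counts of 14050 to 90912 per library and are called the abundant mitochondrial genes below.

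The other 4 mitochondrial genes lay near the floor of the counts. Median levels per kilobase were 6.07 CPM for mt-Nd6, the complex I gene of the opposite strand, 1.94 for mt-Atp8 of ATP synthase, 1.05 for mt-Co3 and 0.872 for mt-Co2. Their neighbours mt-Nd3 and mt-Nd4l, at 0.272 and 0.162 CPM per kilobase, fell below the count limit. From mt-Co2 to mt-Nd4l the low genes form 1 stretch of the mitochondrial genome (chrM:7013-10173 in mm10), between mt-Co1 and mt-Nd4 on either side with levels of 2387 and 426 CPM per kilobase. Annotated nuclear copies of mitochondrial genes on chromosome 1 carried a summed level of 3.40 to 15.2 CPM in 25 libraries. The sources used here do not give how reads that match both a mitochondrial gene and such a copy were counted, and the part of this in the low values was not tested. The low genes add little to the sums used below, and their tests rest on a mean of 11.4 to 106 counts per library.

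**Figure D1:**
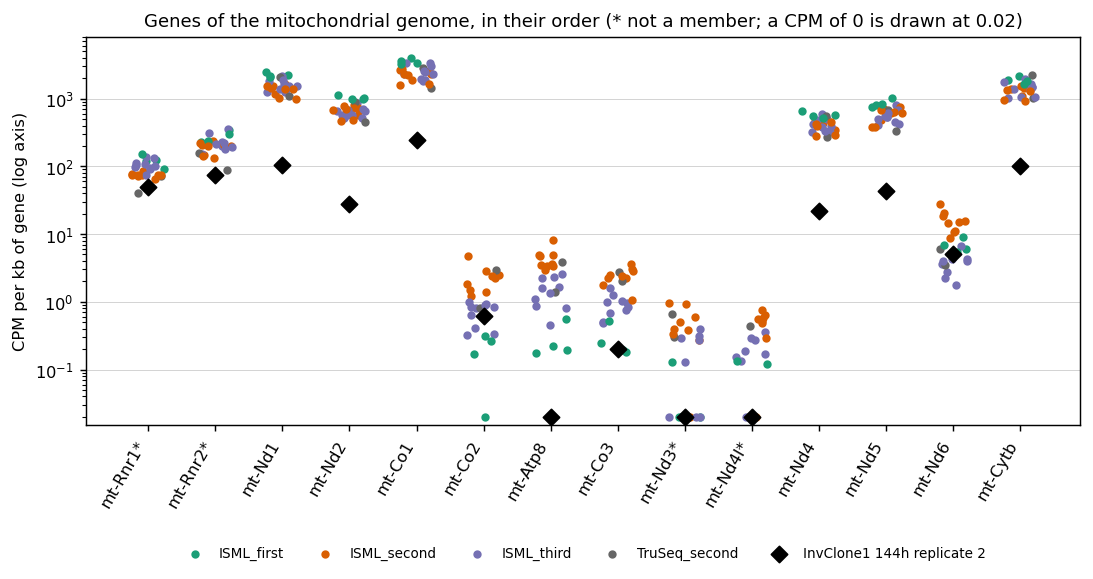
CPM per kilobase of gene (log axis) for the genes of the mitochondrial genome in their order, 1 point per library, coloured by library name. Replicate 2 of InvClone1 at 144h is drawn as a diamond, and genes with an asterisk are not among the 94. mt-Nd1, mt-Nd2, mt-Co1, mt-Nd4, mt-Nd5 and mt-Cytb sit at medians of 426 to 2387 CPM per kilobase, the stretch from mt-Co2 to mt-Nd4l at 0.162 to 1.94, and the diamond lies far under all other points for the 6 abundant genes.

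Nuclear levels can be compared between genes in the deposited FPKM, which corrects for transcript length. Complex V genes had the highest median over genes, 105 FPKM, followed by complex III with 77.9, complex II with 69.9, complex IV with 66.4 and complex I with 38.2. The catalytic subunits of ATP synthase led the list: Atp5b, the beta subunit, had a median of 461 FPKM over the libraries (range 362 to 742) and Atp5a1, the alpha subunit, 230 (190 to 399). Next came Atp5g3, which encodes the subunit of the membrane ring, with 226, Uqcrh of complex III with 169, Cox4i1 of complex IV with 157 and Ndufa4 with 154. All 36 mitochondrial genes are listed at 0 in that table, so mitochondrial and nuclear levels were compared in counts only.

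Several subunits exist as a common isoform and as one known from particular tissues or from low oxygen, and in each pair the common isoform was far above the other in every library. Cox4i1 ran from 153 to 337 CPM and its lung isoform Cox4i2 from 0.0444 to 3.04. Cox7a2 ran from 47.4 to 198 CPM and the heart and muscle isoform Cox7a1 from 0.184 to 1.33. Cox6b1 ran from 101 to 189 CPM and the testis isoform Cox6b2 from 6.46 to 23.6. Ndufa4 ran from 67.2 to 207 CPM and Ndufa4l2, a hypoxia-induced relative, from 0.0444 to 5.49. The muscle isoforms Cox6a2 and Cox8b and the testis isoform Cox8c had means of 0.577, 0.269 and 0.0385 counts and did not enter. Both Cox4i2 and Ndufa4l2 were highest in replicate 2 of InsDel5to10 at 120h.

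Nuclear respiratory genes are known targets of a few transcription factors, among them NRF1, GABP (an ETS factor), YY1 and the ERR receptors, so their promoters were searched for the letters of 1 core motif each, on both strands. RefSeq (GRCm38.p6) gave a window from 250 bases before to 50 bases after the start for 64 of the 84 nuclear genes and for 27025 genes in all. The palindrome of NRF1, spelled in capitals in the sequences that follow, was in 5 of the 64 windows (7.81%) and in 1.07% of all. The YY1 core, likewise spelled in capitals, was in 4 (6.25%) against 0.755%, CCGGAAG of ETS factors in 17 (26.6%) against 9.93%, and TCAAGGTCA of ERR receptors in 2 (3.12%) against 0.466%. These are counts of letters, not of sites in use. The NRF1 letters were in the windows of Atp5g2, Atp5k, Cox6a1, Ndufa11 and Uqcrc1. Shown are the 250 bases before the start of 3 of them, chosen because their levels moved in the comparisons below, 5′ to 3′ on the gene's strand with the NRF1 letters in capitals. Cox6a1 is read from the minus strand of chr5:115348959-115349208, Ndufa11 from the plus strand of chr17:56717512-56717761 and Atp5g2 from the minus strand of chr15:102671048-102671297.
Cox6a1: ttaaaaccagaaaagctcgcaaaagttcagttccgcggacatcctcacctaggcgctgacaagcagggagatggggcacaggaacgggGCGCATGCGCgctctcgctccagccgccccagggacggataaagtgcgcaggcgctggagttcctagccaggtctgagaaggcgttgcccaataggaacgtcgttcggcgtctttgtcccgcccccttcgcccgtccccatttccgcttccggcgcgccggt
Ndufa11: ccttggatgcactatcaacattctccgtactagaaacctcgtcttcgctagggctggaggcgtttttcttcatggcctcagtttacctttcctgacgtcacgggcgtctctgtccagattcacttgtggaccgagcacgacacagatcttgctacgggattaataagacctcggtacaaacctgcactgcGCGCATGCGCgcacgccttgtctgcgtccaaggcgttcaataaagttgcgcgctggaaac
Atp5g2: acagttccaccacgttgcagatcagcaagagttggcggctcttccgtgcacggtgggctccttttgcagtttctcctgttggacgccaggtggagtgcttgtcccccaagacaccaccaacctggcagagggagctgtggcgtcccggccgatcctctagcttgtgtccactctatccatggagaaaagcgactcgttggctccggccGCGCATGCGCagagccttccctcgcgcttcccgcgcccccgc

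The YY1 letters were found in 4 complex I genes, each time 24 to 35 bases after the start and on the gene's own strand. Printed are 24 bases of each with the motif in capitals, to show the match and its flanks: Ndufa9 from the minus strand of chr6:126849101-126849124, Ndufs4 from the minus strand of chr13:114388045-114388068, Ndufs6 from the minus strand of chr13:73328435-73328458 and Ndufs7 from the plus strand of chr10:80249464-80249487.
Ndufa9: ttgtgggagAAGATGGCGGCcgcc
Ndufs4: gcctacaggAAGATGGCGGCggtc
Ndufs6: gtcaccggcAAGATGGCGGCggtg
Ndufs7: gccgaggccAAGATGGCGGCgctg
These 4 genes did not behave as a group. Against ISML_second, Ndufa9 was higher in ISML_third (0.56 ± 0.14 on the log2 scale, adjusted p = 0.00818) and Ndufs7 lower (-3.21 ± 0.56, adjusted p = 0.00180), by edgeR's quasi-likelihood test with Benjamini-Hochberg adjustment in the comparison described below. That comparison rests on InvClone1, and on 1 library of each name once the 2 libraries that stood apart are left out. Without the 2 libraries that stood apart Ndufa9 did not pass (0.49, adjusted p = 0.109) and Ndufs7 did (-3.65, adjusted p = 0.0357).

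The summed mitochondrial genes took 0.0706% to 1.44% of a library's counts (median 0.936%) and the summed nuclear genes 0.768% to 1.16% (median 0.874%). The mitochondrial share varied the more of the pair: its SD over the 26 libraries was 0.282 percentage points against 0.0864 for the nuclear share, and 0.227 against 0.0881 without replicate 2 of InvClone1 at 144h. On the log2 scale the mitochondrial sum over the nuclear sum ran from -1.02 to 0.72 in 25 libraries and was -3.63 in that one. The mitochondrial sum is carried by few genes, since mt-Co1 alone made up 36.6% to 44.6% of it in 25 libraries and 51.6% in replicate 2 of InvClone1 at 144h.

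By library name, the mitochondrial share was 1.18% to 1.44% in the 4 ISML_first libraries and 0.616% to 1.05% in 9 of the 10 ISML_second libraries, so that these did not overlap. In the 10 ISML_third libraries it ran from 0.674% to 1.26%. The 2 TruSeq_second libraries, both of InvClone1 at 120h, stood at 0.569% and 1.21%, and their nuclear shares of 1.16% and 1.08% were the highest of all. Replicates could differ as much as groups: InsDel5to10 at 120h had 1.26% in replicate 1 and 0.694% in replicate 2 under 1 library name.

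**Figure D2:**
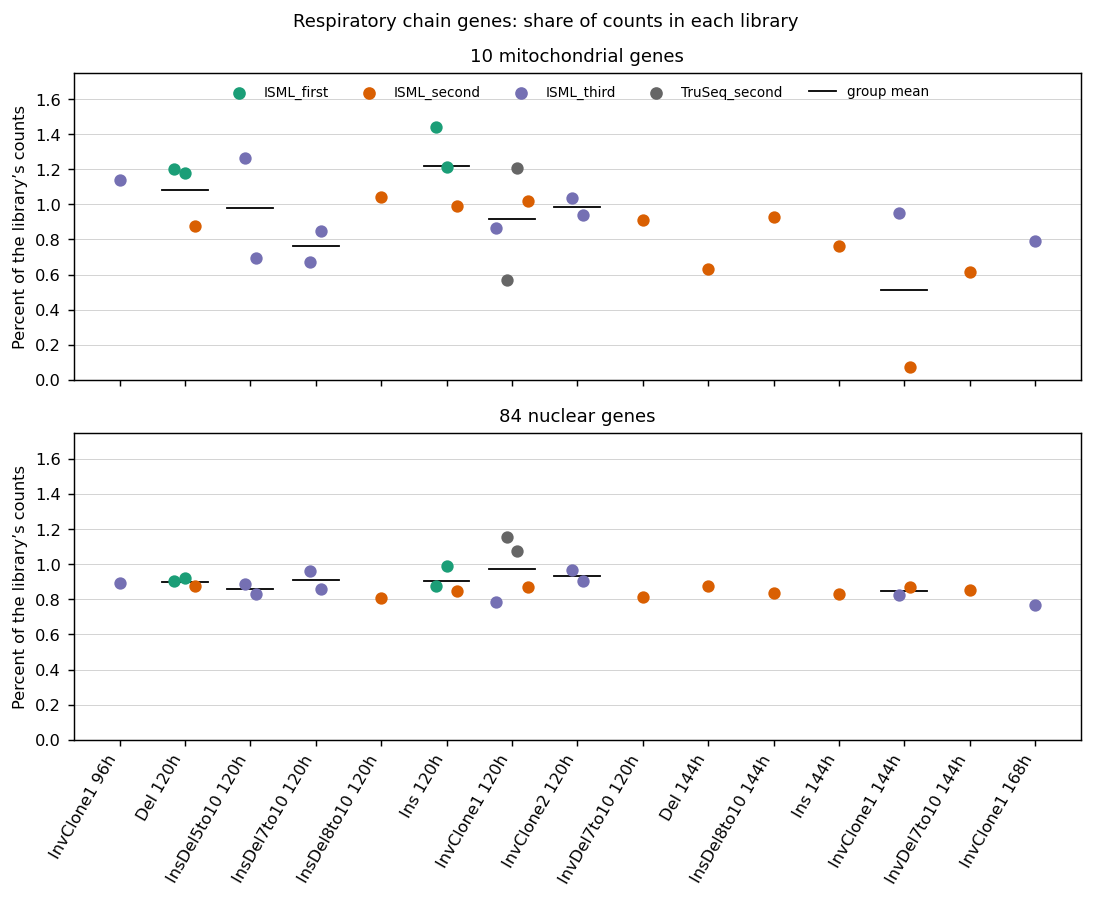
Percent of a library's counts in the 10 mitochondrial (top) and 84 nuclear (bottom) genes, 1 point per library by line and stage, coloured by library name, with a line at the mean of groups of at least 2 libraries. The nuclear share stays between 0.768% and 1.16%, while the mitochondrial share runs from 0.0706% in replicate 2 of InvClone1 at 144h to 1.44% in replicate 1 of Ins at 120h.

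In replicate 2 of InvClone1 at 144h the 6 abundant mitochondrial mRNAs were far lower than elsewhere, while the summed nuclear ones were not. mt-Co1 stood at 378 CPM there, against 2446 to 4198 in the other 9 ISML_second libraries and 3804 in the ISML_third replicate of the same line and stage. mt-Nd2 stood at 28.6 CPM against 485 to 843 and 670. Over the 6 abundant mitochondrial genes the median of the other 9 libraries was 9.39-fold (mt-Co1) to 25.6-fold (mt-Nd2) higher, with a median of 13.8-fold, and all 6 had their lowest value of the 26 libraries in this one. The 4 low genes stood below the other 9 ISML_second libraries, with 2.65 CPM for mt-Nd6, 0.416 for mt-Co2, 0.156 for mt-Co3 and no count for mt-Atp8, but mt-Nd6, mt-Co2 and mt-Co3 were lower still in libraries of other names. The mitochondrial ribosomal RNAs, which are not protein-coding and are read here from polyadenylated RNA, were lowered less. mt-Rnr1 was at 46.6 CPM against 61.7 to 80.2, and mt-Rnr2 at 117 against 207 to 379. The chromosome 1 copies summed to 0.625 CPM against 4.33 to 8.53. With 1 library, these differences have no replicate check.

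The nuclear genes of that library kept a sum of 0.872% of counts, inside the range of the other 9 (0.810% to 0.876%), but moved one by one. Of 78 nuclear genes with a mean of at least 100 counts, 34 lay below and 36 above the range of the other 9, together 89.7%. Of all 10914 genes with such a mean, 71.6% lay outside that range, so most of the transcriptome of this library differed. The log2 difference from the median of the other 9 ran from -1.67 to 1.86 over these nuclear genes, with a median of 0.03. The library also had the highest sum of endoderm markers, 467 CPM, and of cardiac and lateral mesoderm markers, 175 CPM, of the 26 libraries, and their part in these values was not tested.

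The stages were compared in the 10 ISML_second libraries, which hold 1 library each at 120h and 144h for Del, Ins, InsDel8to10, InvClone1 and InvDel7to10. Between these libraries the abundant mitochondrial genes were lower at 144h in 5 of 5 lines, and the nuclear genes showed no common shift. Between the ISML_third libraries of InvClone1, given below, the mitochondrial share was higher at 144h. In Del mt-Co1 went from 3394 CPM at 120h to 2499 at 144h, in Ins from 3898 to 2909, in InsDel8to10 from 4056 to 3572, in InvDel7to10 from 3550 to 2446 and in InvClone1 from 4198 to 378. The 144h values lie below the 120h value of their own line each time, while over all lines the groups overlap, since 3572 in InsDel8to10 at 144h is above 3394 in Del at 120h. mt-Cytb behaved alike, from 1468 to 1085 CPM in Del, 1663 to 1257 in Ins, 1767 to 1592 in InsDel8to10, 1529 to 1042 in InvDel7to10 and 1747 to 114 in InvClone1. The median log2 change of the 6 genes was -0.46 in Del, -0.42 in Ins, -0.18 in InsDel8to10, -0.57 in InvDel7to10 and -3.92 in InvClone1. The median of the nuclear genes with a mean of at least 100 counts was -0.00, -0.08, 0.04, 0.05 and -0.08 in the same lines. InvClone1 therefore holds most of the mean change.

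Each of the 6 abundant mitochondrial genes was lower in every line, as were 18.0% of all 15011 genes tested. None passed the test over 5 lines, where the mean changes lay between -0.90 and -1.10 on the log2 scale and the smallest adjusted p was 0.179 (edgeR's quasi-likelihood test with Benjamini-Hochberg adjustment, line as a term). In all, 2 of 93 genes passed, 1 mitochondrial and 1 nuclear, where 15.2% of all genes did. Without the line InvClone1 17 of 92 passed, 7 mitochondrial and 10 nuclear, where 32.1% of all genes did, and the change of the 6 abundant mitochondrial genes was then smaller and more even. mt-Nd1 fell by 0.39 ± 0.05, mt-Co1 by 0.39 ± 0.05, mt-Nd4 by 0.41 ± 0.07, mt-Nd2 by 0.40 ± 0.06, mt-Cytb by 0.38 ± 0.06 and mt-Nd5 by 0.57 ± 0.10 over the remaining 4 lines (SE). The adjusted p of these 6 lay between 0.000170 and 0.0174. The value for 5 lines thus joins a change of about this size in 4 lines with the much larger one of InvClone1, whose 144h library is the one described above.

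The mitochondrial gene that passed over 5 lines was mt-Co2, a complex IV subunit near the floor of the counts. Its levels were 1.92, 1.55, 1.69, 1.62 and 3.28 CPM at 120h and 1.26, 0.846, 0.958, 0.416 and 1.01 at 144h in Del, Ins, InsDel8to10, InvClone1 and InvDel7to10. All 144h values lie below all 120h values. The log2 change was -1.13 ± 0.25 (edgeR's quasi-likelihood test, adjusted p = 0.0186), and it did not pass without InvDel7to10 (adjusted p = 0.0829). mt-Nd6 went from 7.64 to 14.3 CPM at 120h to 2.65 to 10.5 at 144h and was higher at 144h in InsDel8to10 alone (log2 change over 5 lines -0.77 ± 0.30, not passed).

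The nuclear gene that passed was Cox6a1, the common isoform of complex IV subunit 6A (ENSMUSG00000041697, chr5:115345642-115348981 in mm10, the promoter of which is printed above). It stood at 87.3, 83.3, 87.6, 90.1 and 85.2 CPM at 120h in Del, Ins, InsDel8to10, InvClone1 and InvDel7to10, and at 98.8, 91.4, 99.4, 121 and 96.9 at 144h. The stages do not overlap, and the gene was higher at 144h in 5 of 5 lines. It rose by 0.24 ± 0.07 on the log2 scale (edgeR's quasi-likelihood test, adjusted p = 0.0468), close to the threshold, and adjusted p ran up to 0.136 when 1 of the other lines was left out. Without InvClone1 it rose by 0.18 ± 0.04 (adjusted p = 0.00170).

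Over the 83 nuclear genes tested, 41 had a fold change above 0 and 42 below, and the median was -0.00, as for all genes (-0.01). Medians by complex were 0.05 for I, -0.09 for II, -0.07 for III, -0.13 for IV and 0.08 for V. The 10 mitochondrial genes were all below 0 with a median of -0.95. Without InvClone1 the nuclear genes that passed included Cox7a2 (-0.26 ± 0.04) and Cox5a (-0.24 ± 0.04) of complex IV, which fell, and Ndufa12 of complex I, which rose (0.31 ± 0.05). These changes are smaller than those of the mitochondrial genes in the same 4 lines.

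**Figure D3:**
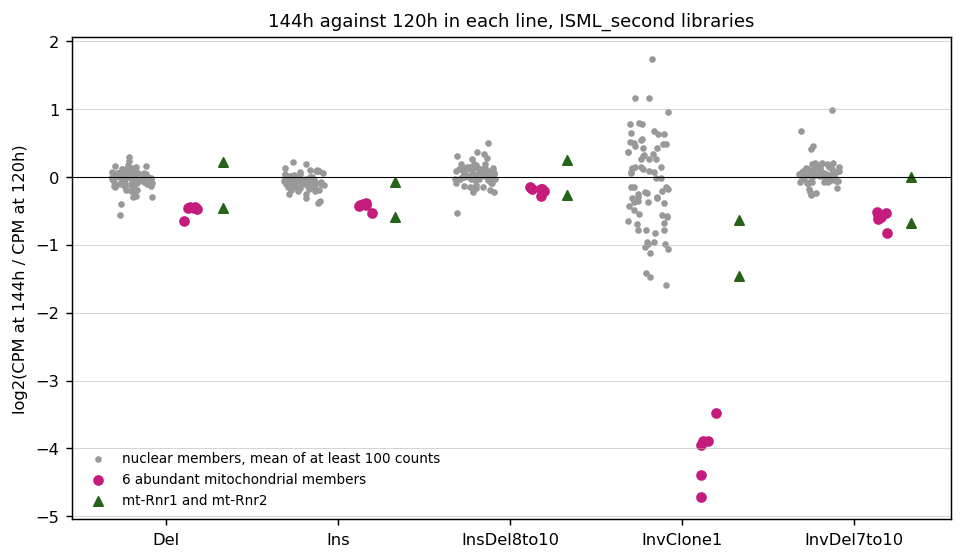
Log2 of CPM at 144h over CPM at 120h in each of 5 lines, from ISML_second libraries with 1 library per line and stage. Grey points are nuclear genes with a mean of at least 100 counts, pink points the 6 abundant mitochondrial genes and triangles the mitochondrial ribosomal RNAs. The pink points lie below 0 in all 5 lines, with medians of -0.18 to -0.57 in 4 of them and -3.92 in InvClone1.

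As the sum, the log2 ratio of mitochondrial to nuclear counts changed from 120h to 144h by -0.47 in Del, -0.35 in Ins, -0.21 in InsDel8to10, -0.63 in InvDel7to10 and -3.85 in InvClone1. The mean was -1.10 with an SD of 1.54 over 5 lines, and -0.42 without InvClone1. InvClone1 was also followed in 4 ISML_third libraries, 1 at each stage. There the mitochondrial share was 1.14% at 96h, 0.866% at 120h, 0.954% at 144h and 0.791% at 168h, and the nuclear share 0.896%, 0.785%, 0.823% and 0.768%. The drop from 1.02% to 0.0706% seen in this line between the ISML_second libraries was therefore not seen between its ISML_third libraries. Their log2 ratio of mitochondrial to nuclear counts was 0.14 at 120h and 0.21 at 144h, so the direction was the opposite, with 1 library per stage.

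Other genes of the mitochondrial pathway were taken from fixed lists. Over 5 lines 9.25% of all genes were called higher and 5.94% lower. Of the mitochondrial ribosomal and transfer RNAs, 4 were tested and 2 fell at 144h: mt-Rnr2 (-0.67 ± 0.15, edgeR's quasi-likelihood test, adjusted p = 0.0209) and the transfer RNA mt-Tt (-1.41 ± 0.33, adjusted p = 0.0229, at levels near 1 CPM). mt-Rnr1 stood at 61.7 to 74.5 CPM at 120h and at 46.6 to 80.2 at 144h and was not passed. Of 30 genes for mitochondrial transcription, RNA processing and DNA maintenance, 27 had a fold change below 0 (median -0.14), where 7696 of all 15011 genes did (median -0.01). Of the 30, 1 passed: Pnpt1, the polynucleotide phosphorylase, fell by 0.49 ± 0.14 (edgeR's quasi-likelihood test, adjusted p = 0.0469).

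Of 46 assembly factors 1 passed, Ndufaf4 of complex I, which fell by 0.47 ± 0.12 (edgeR's quasi-likelihood test, adjusted p = 0.0309). Of 80 mitochondrial ribosomal proteins, 16 genes of the citric acid cycle and pyruvate dehydrogenase, 11 regulators of nuclear respiratory genes and 4 genes around cytochrome c, none passed by edgeR's quasi-likelihood test (5, 2, 1 and 1 had an unadjusted p under 0.05, where 28.7% of all genes did), and their medians lay between -0.05 and 0.01. Tissue markers moved much more over the same libraries: 6 of 6 tailbud markers fell (median -1.60) and 6 of 6 neural tube markers rose (median 1.93). Without InvClone1, 3 of 6 tailbud markers passed as lower (median -1.60) and 6 of 6 neural tube markers as higher (median 1.85). The part of this change in cell types in the mitochondrial values was not tested.

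Without InvClone1 16.4% of all genes were called higher and 15.6% lower. mt-Rnr2 fell by 0.49 ± 0.07, mt-Tt by 1.21 ± 0.33, Pnpt1 by 0.33 ± 0.04 and Ndufaf4 by 0.34 ± 0.05 over the remaining 4 lines (SE), and all 4 passed by edgeR's quasi-likelihood test with adjusted p from 4.2e-05 to 0.0104. Of the 30 genes for transcription, RNA processing and DNA maintenance 10 passed there, all lower, among them Polrmt, the mitochondrial RNA polymerase (-0.16 ± 0.05, adjusted p = 0.0258). Of 46 assembly factors 3 passed as lower, and of 80 ribosomal proteins 1 as higher and 3 as lower.

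Lines were compared at 120h in a fit of all 26 libraries with line and stage as groups and the library name as a term. None of the 94 genes passed in any of the 5 comparisons by edgeR's quasi-likelihood test, and none did by DESeq2. The shares of all genes that follow are by edgeR. Among all 17769 genes tested 0.00563% passed for Ins against Del, 0.0169% for InvClone1 against Ins, 0.253% for InsDel7to10 against InsDel5to10, 0.152% for InsDel5to10 against InvClone2 and 0.141% for InsDel7to10 against InvClone2, so few genes of any kind did. At an unadjusted p under 0.05 the counts of the 94 were 0, 1, 8, 14 and 2 in the same order, all nuclear, where the shares of all genes were 1.06%, 0.951%, 10.7%, 6.53% and 8.93%. The first 2 comparisons share the Ins libraries, and the last 3 share lines pairwise. With the replicate number as a block, nuclear genes passed for InsDel5to10 against InvClone2 alone, as described at the end.

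Ins and Del at 120h had small median differences in both genomes. mt-Co1 was at 6068, 5169 and 3898 CPM in replicates 1 to 3 of Ins and at 5025, 5500 and 3394 in those of Del. The groups overlap, and in both the ISML_second replicate is the lowest. mt-Cytb was at 2494, 2168 and 1663 CPM against 2044, 1865 and 1468. Between libraries of the same number, 5 of the 6 abundant mitochondrial genes were higher in Ins in 3 of 3 pairs, where 11.9% of all genes were, and mt-Co1 in 2 of 3. With the replicate number as a block none of the 94 genes passed. The median log2 fold change was 0.17 over the 6 abundant mitochondrial genes and -0.00 over the 84 nuclear genes. Nuclear fold changes lay between -1.63 and 0.21, with the lowest in Ndufa4l2, at a mean of 20.8 counts.

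InvClone1 against Ins at 120h gave a median of -0.70 over the 6 abundant mitochondrial genes and -0.06 over the nuclear ones. mt-Co1 was at 3510 CPM in the ISML_third replicate of InvClone1, 2231 and 4321 in the TruSeq_second replicates and 4198 in the ISML_second replicate. The values of InvClone1 and Ins overlap for this gene, and its fold change was -0.49 ± 0.68. Without replicate 4 of InvClone1 13 genes passed where 1.71% of all did, 6 of them the abundant mitochondrial genes with log2 fold changes of -3.45 to -4.97. The mitochondrial median minus the nuclear one was -0.53 with all libraries, -3.61 without replicate 4 and -0.014 without replicate 1. In the fit without replicate 4 the term for the library name rests on replicate 2 of InvClone1 at 144h, the library with few mitochondrial counts, against replicate 1.

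Of the nuclear genes, 7 passed in that fit, Cox7a2l higher and Sdhd, Sdhc, Cox6c, Ndufa1, Atp5j and Atp5l lower. None of these passed with replicate 4 in the fit, and they were named after their values were seen.

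Between the lines sequenced under ISML_third, InsDel5to10 against InvClone2 had 39 of 84 nuclear genes lower without overlap between the libraries, where 21.7% of all genes were, with a median of -0.08 and 14 at an unadjusted p under 0.05. Uqcrq, a small subunit of complex III, was at 15.9 and 19.7 CPM in InsDel5to10 and at 37.6 and 62.0 in InvClone2. Uqcr11 of the same complex was at 23.1 and 26.5 against 44.3 and 69.3. Both genes were lower in both libraries of InsDel5to10, and neither passed. InsDel7to10 against InvClone2 had 5 of the 6 abundant mitochondrial genes lower without overlap (median of the 6 -0.35), and 11 of 84 nuclear genes (median -0.04), where 18.0% of all genes were. The mitochondrial median minus the nuclear one was -0.31 there, -0.65 without replicate 2 of InsDel7to10 and -0.00 without replicate 1.

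InsDel7to10 is a line whose replicates lie apart in these genes. Uqcrq was at 87.2 CPM in replicate 1 and 13.6 in replicate 2, Ndufb7 at 62.3 and 16.7, Ndufs7 at 48.7 and 10.1, and Atp5d at 177 and 49.2. Replicate 1 was the higher of the pair for all 4 genes. Against InsDel5to10, 19 nuclear genes passed, all higher, when replicate 2 was left out, where 5.28% of all genes did. The 6 abundant mitochondrial genes had a median of -0.36 against InsDel5to10 with both replicates, and mt-Co1 was at 2798 and 3569 CPM against 5198 and 2998. Replicate 1 of InsDel5to10 thus lay above both of InsDel7to10 and replicate 2 between them.

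More of the 94 genes passed between library names than between lines. ISML_second against ISML_first rests on Ins and Del at 120h, which hold both names. There 3 of the 94 genes passed, all mitochondrial and near the floor of the counts, where 2.30% of all genes passed. No nuclear gene passed by edgeR, and 23 of 84 had an unadjusted p under 0.05, where 19.2% of all genes did. By DESeq2 7 nuclear genes passed, and the share of all genes by DESeq2 is not given here. mt-Co3 was at 0.143, 0.153, 0.196 and 0.408 CPM in the ISML_first libraries and at 1.92 and 1.88 in the ISML_second ones. mt-Co2 was at 0.214, 0, 0.117 and 0.181 against 1.55 and 1.92, and mt-Atp8 at 0.0357, 0.115, 0.0391 and 0.0453 against 0.985 and 0.694. In all 3 the groups are far apart. They rose by 3.12 ± 0.57, 3.70 ± 0.76 and 3.74 ± 0.89 on the log2 scale (edgeR's quasi-likelihood test, adjusted p = 0.0119, 0.0248 and 0.0454), and none passed without replicate 3 of Ins, replicate 3 of Del or replicate 1 of Del.

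The 6 abundant mitochondrial genes went the other way. All were lower in ISML_second without overlap (median -0.49, lowest adjusted p 0.598), where 22.1% of all genes were lower without overlap, as were 52 of the 84 nuclear genes (median -0.20). A nuclear copy on chromosome 1, Gm29216, rose by 2.79 ± 0.62 (adjusted p = 0.0336). Cytochrome c itself, Cycs, which carries electrons from complex III to IV, fell by 0.62 ± 0.14 (edgeR's quasi-likelihood test, adjusted p = 0.0301). All 7 endoderm, 5 endothelial and 6 cardiac markers tested had fold changes above 0 (medians 1.79, 2.92 and 3.36), with summed endoderm levels of 40.6 to 201 CPM in the ISML_first libraries of Ins and Del and 251 and 302 in their ISML_second ones. Their part in these differences was not tested.

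ISML_third against ISML_second rests on InvClone1 at 120h (replicate 1 against 4) and 144h (replicate 1 against 2). Without the 2 libraries that stood apart it rests on replicate 1 against 4 at 120h alone, 1 library of each name. With all libraries in the fit 45 of the 84 nuclear genes passed, 16 higher and 29 lower. No mitochondrial gene did by edgeR (2 at an unadjusted p under 0.05, and 6 passed by DESeq2). Of all genes 36.3% passed by edgeR, 15.7% higher and 20.7% lower. The share of all genes by DESeq2 is not given here, so the DESeq2 count is not set against it. By complex, 7 of 40 genes of complex I were higher and 17 lower, 1 of 4 and 1 of 4 in complex II, 2 of 8 and 4 of 8 in III, 2 of 16 and 4 of 16 in IV, and 4 of 16 and 3 of 16 in V. The median was -0.54 in complex I, 0.29 in II, -0.29 in III, -0.58 in IV and 0.08 in V, against -0.05 for all genes.

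The lower genes include accessory subunits of complexes I and III with large fold changes. Ndufb7, an accessory subunit of complex I (ENSMUSG00000033938, chr8:83566671-83571626 in mm10), was at 4.99 and 16.8 CPM in the ISML_third libraries of InvClone1 at 120h and 144h and at 55.8 and 186 in the ISML_second ones. The pairs do not overlap. The 4.99 at 120h and the 186 at 144h, which belong to different stages, are extremes of the 26 libraries. It fell by 3.47 ± 0.47 on the log2 scale (edgeR's quasi-likelihood test, adjusted p = 0.000604). Ndufa2 was at 14.0 and 27.1 against 53.9 and 120 CPM and fell by 2.05 ± 0.28 (adjusted p = 0.000499). Ndufv1, the NADH-binding flavoprotein, was at 66.9 and 88.0 against 118 and 173 and fell by 0.90 ± 0.13 (adjusted p = 0.000501). For these genes the ISML_third libraries were the lower ones at both stages.

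In complex III, Uqcrc1, a core subunit, was at 101 and 139 CPM against 193 and 248 and fell by 0.88 ± 0.13 (edgeR's quasi-likelihood test, adjusted p = 0.000580). Its partner core subunit Uqcrc2 went the opposite way, with 245 and 218 CPM in ISML_third against 145 and 84.4 in ISML_second, and rose by 1.06 ± 0.16 (adjusted p = 0.000573). Uqcrb, the ubiquinone-binding subunit, was at 107 and 86.3 against 63.5 and 31.0 and rose by 1.11 ± 0.18 (adjusted p = 0.000789). Subunits of 1 complex therefore moved in opposite directions between the same libraries. Uqcrq and Uqcr11 fell by 2.87 ± 0.63 and 2.74 ± 0.50, and Uqcrq did not pass without the 2 libraries that stood apart (-3.13, adjusted p = 0.0733).

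Genes of the other complexes also passed in both directions with all libraries in the fit. Of ATP synthase, Atp5e, the epsilon subunit, was at 38.7 and 45.0 CPM against 74.1 and 166 and fell by 1.41 ± 0.23, and Atp5d, the delta subunit, fell by 2.50 ± 0.46, while Atp5md rose by 0.76 ± 0.17. Of complex IV, Cox7a2 was at 145 and 108 CPM against 94.3 and 47.4 and rose by 0.90 ± 0.16, while Cox4i1 fell by 0.67 ± 0.13 and Cox6a1 by 1.41 ± 0.27. Of complex II, Sdhb, the iron-sulphur subunit, fell by 0.61 ± 0.15 and Sdhc, a membrane anchor, rose by 0.60 ± 0.19, with 134 and 162 CPM against 128 and 74.2, so that the libraries at 120h hardly differ. Ndufa4, named as a complex I gene and found in complex IV, rose by 0.81 ± 0.19, Ndufa11 of complex I fell by 1.77 ± 0.28, and Atp5g2 of the membrane ring by 1.38 ± 0.31. All passed by edgeR's quasi-likelihood test, with adjusted p from 0.000792 (Ndufa11) to 0.0281 (Sdhc). Without replicate 2 of InvClone1 at 144h and replicate 2 at 120h, the higher ones did not pass: Sdhc was at 0.06 (adjusted p = 0.837), Ndufa4 at 0.40 (0.231), Atp5md at 0.38 (0.218) and Cox7a2 at 0.61 (0.0568). Of the lower ones Atp5e, Atp5d, Cox4i1, Sdhb, Ndufa11 and Atp5g2 passed there and Cox6a1 did not (-1.42, adjusted p = 0.0584). Opposite directions within a complex thus passed without these libraries in complex III alone. That fit compares 1 library of each name.

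**Figure D4:**
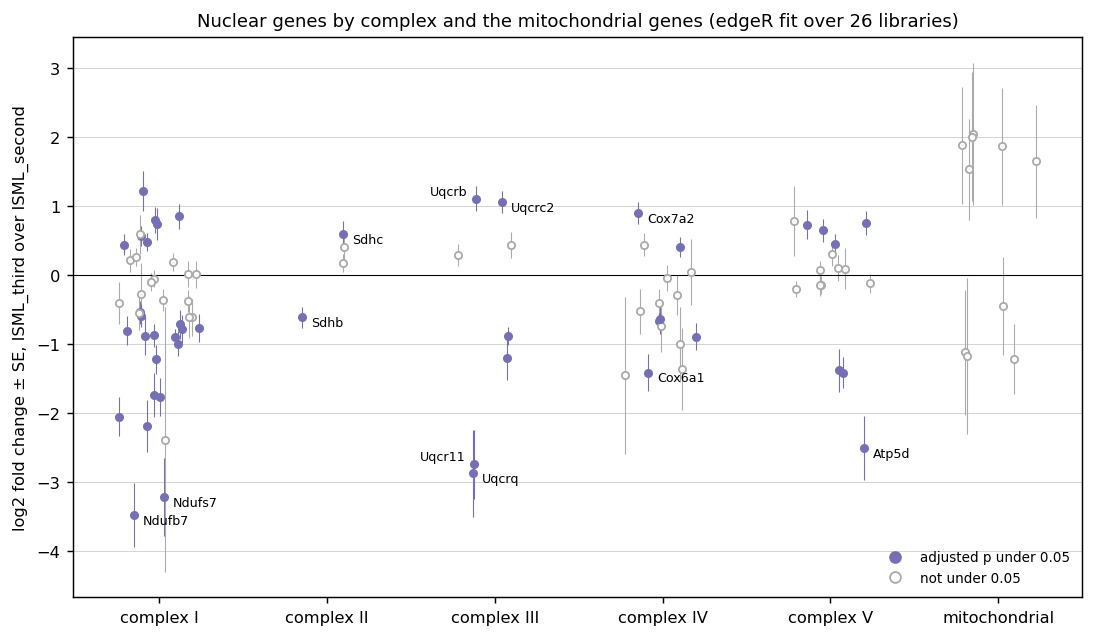
Log2 fold change with its SE for ISML_third against ISML_second, 1 point per gene, with the nuclear genes by complex and the mitochondrial genes at the right. Filled points passed the test (16 higher and 29 lower) and open points did not. With all libraries in the fit every nuclear complex holds filled points on both sides of 0, and the 6 abundant mitochondrial genes lie at 1.53 to 2.05 with wide errors.

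The mitochondrial genes in this comparison are set by 1 library. The 6 abundant genes had a median of 1.88, and the mitochondrial median exceeded the nuclear one by 1.92. Leaving out replicate 1 or 2 of InvClone1 at 144h brought that difference to 0.012, and leaving out replicate 1 or 4 at 120h brought it to 3.91. The fit without replicate 2 of InvClone1 at both 144h and 120h sets replicate 1 against 4 at 120h, 1 library of each name. Passing in it is therefore no check in further libraries. Replicate 1 at 120h had the lowest value of the 26 libraries for 30 of 78 nuclear genes with a mean of at least 100 counts. The share of all genes with their lowest value there is not given here. Without replicate 2 of InvClone1 at 144h and replicate 2 at 120h, 25 nuclear genes passed, 3 higher and 22 lower, where 13.1% of all genes did (2.57% higher and 10.6% lower), and 20 of them had passed before in the same direction. Ndufb7, Ndufs7, Uqcr11, Atp5d, Ndufa11 and Ndufa2 were among the lower ones, with log2 fold changes of -3.49, -3.65, -3.32, -2.94, -2.20 and -1.95. The higher ones were Uqcrc2 (0.75), Uqcrb (0.75) and Uqcrh (0.61). Of the mitochondrial genes mt-Nd6 (-2.19) and mt-Atp8 (-3.38) passed in that fit, both lower.

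The comparison uses InvClone1 alone, and 6 further ISML_third libraries of 3 other lines at 120h show how far it extends. They were set against the 9 ISML_second libraries other than replicate 2 of InvClone1 at 144h, so that line and library name differ together here and cannot be told apart. The 16 higher genes lay above that range in all of them for the most part: 16, 15, 14, 16, 16 and 14 of the 16 in replicates 1 and 2 of InsDel5to10, InsDel7to10 and InvClone2, and none lay below. Of the 39 nuclear genes that did not pass, 22, 22, 34, 21, 24 and 20 lay above the range too and 9, 9, 0, 11, 5 and 5 below. Of all 17769 genes tested 19.1% to 26.6% lay above it in these libraries and 21.4% to 31.9% below. The 29 lower genes were uneven. Of these 23 and 19 lay below the range in InsDel5to10 and 25 in replicate 2 of InsDel7to10, but 10 and 8 in InvClone2 and none in replicate 1 of InsDel7to10, where 27 lay above it.

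For example, Uqcrc2 ran from 170 to 209 CPM in the 6 libraries and from 144 to 158 in the 9. Uqcrb ran from 80.9 to 101 against 58.8 to 68.8, and Cox7a2 from 112 to 154 against 73.4 to 98.8. None of these 3 overlapped. Ndufb7 ran from 16.7 to 62.3 against 48.4 to 58.4, Uqcrq from 13.6 to 87.2 against 64.3 to 77.6, and Ndufs7 from 10.1 to 48.7 against 42.6 to 51.3, so that these overlapped and the ISML_third libraries were spread over several fold among themselves.

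**Figure D5:**
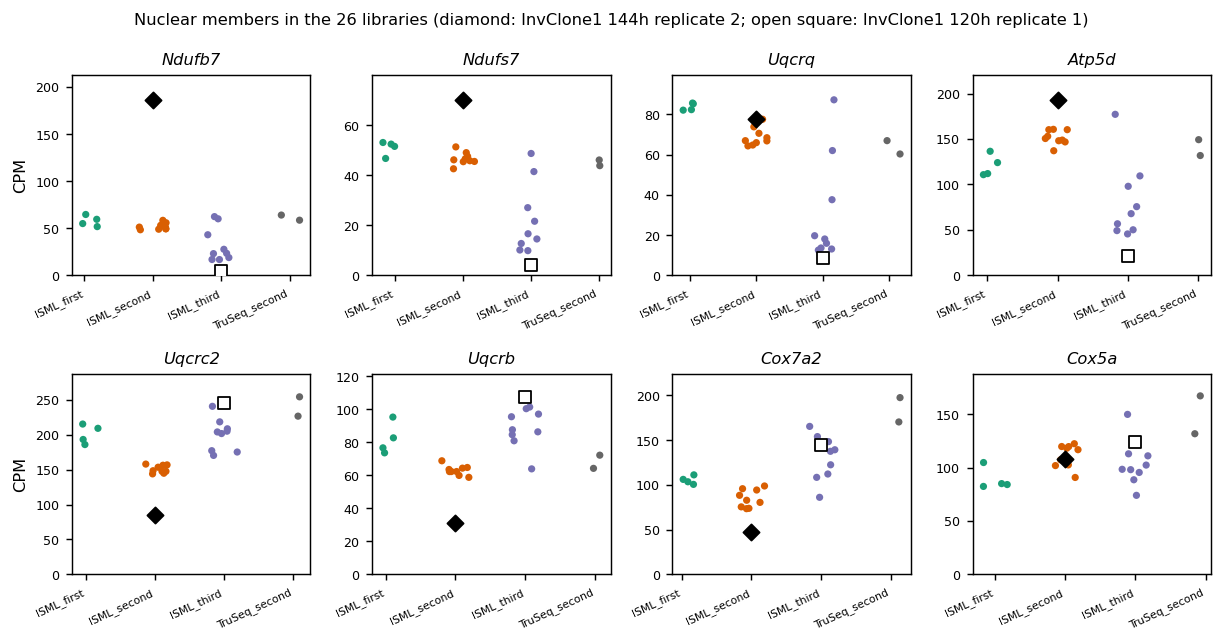
CPM of 8 nuclear genes in the 26 libraries, 1 point per library, by library name, with replicate 2 of InvClone1 at 144h as a diamond and replicate 1 of InvClone1 at 120h as an open square. Ndufb7, Ndufs7, Uqcrq and Atp5d are tight in ISML_first and ISML_second other than the diamond and spread widely in ISML_third, where Ndufb7 runs from 4.99 to 62.3 CPM. Uqcrc2, Uqcrb and Cox7a2 lie mostly above ISML_second in ISML_third, and Cox5a, which did not pass the test, is shown beside them.

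Genes that serve the mitochondrial genome also differed between ISML_third and ISML_second. Of all genes 15.7% were higher and 20.7% lower, and the counts of each list stand against these. Of 30 for transcription, RNA processing and DNA maintenance 14 were higher and 5 lower: Polrmt, the mitochondrial RNA polymerase, fell by 2.68 ± 0.42, Fastk by 1.81 ± 0.24 and Tbrg4 by 0.89 ± 0.11, and Fastkd5 rose by 1.18 ± 0.16. Of 80 mitochondrial ribosomal proteins 8 were higher and 32 lower, with Mrpl12 (-1.81 ± 0.20), Mrpl28 (-1.55 ± 0.18) and Mrpl38 (-1.49 ± 0.19) of the smallest adjusted p. Of 12 regulators 5 were higher and 2 lower: Esrra, an ERR receptor, fell by 3.17 ± 0.48, while Creb1 rose by 0.68 ± 0.11, Sp1 by 0.69 ± 0.12 and Gabpa by 0.64 ± 0.16. All of these passed by edgeR's quasi-likelihood test. Of 46 assembly factors 7 were higher and 10 lower, among them Uqcc3 (-1.25 ± 0.18) and Uqcc2 (-2.02 ± 0.34) of complex III and Coa5 (0.82 ± 0.15) of complex IV.

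In the citric acid cycle 4 of 16 genes were higher and 1 lower: Suclg2, Dld and Cs, the citrate synthase, rose by 0.61 ± 0.12, 0.58 ± 0.14 and 0.68 ± 0.16, and Mdh2 fell by 0.60 ± 0.16. Of the 4 genes around cytochrome c, Atpif1, the inhibitor of ATP synthase, fell by 0.71 ± 0.17. mt-Rnr1 was at 97.4 and 125 CPM against 72.0 and 46.6 and rose by 0.92 ± 0.30 (edgeR's quasi-likelihood test, adjusted p = 0.0300), and the call was lost without the 2 libraries that stood apart (0.43 ± 0.28, adjusted p = 0.332). All endoderm, endothelial and cardiac markers tested were below 0 (medians -2.29, -1.62 and -4.50), and summed cardiac levels of InvClone1 were 2.82 and 4.26 CPM in ISML_third at 120h and 144h against 15.1 and 175 in ISML_second. Their part was not tested. The fit without the 2 libraries that stood apart rests on 1 InvClone1 library of each name at 120h, as given above. Without the 2 libraries that stood apart, 2 of 30 genes for transcription, RNA processing and DNA maintenance were higher and 3 lower, 1 and 16 of 80 ribosomal proteins, 2 and 2 of 12 regulators, none and 4 of 46 assembly factors, and none and 1 of 16 genes of the citric acid cycle. Polrmt, Fastk, Tbrg4, Fastkd5, Mrpl12, Mrpl28, Mrpl38, Esrra, Creb1, Sp1, Uqcc3 and Mdh2 passed there in the same direction, and Gabpa, Uqcc2, Coa5, Suclg2, Dld, Cs and Atpif1 did not (adjusted p 0.0561 to 0.250).

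TruSeq_second against ISML_second rests on InvClone1 at 120h, with replicates 2 and 3 against 4. Of the 84 nuclear genes 4 passed by edgeR, all higher, where 0.405% of all genes passed. No mitochondrial gene did by edgeR or DESeq2 (1 at an unadjusted p under 0.05). Cox7a2 was at 198 and 170 CPM against 94.3 and rose by 1.10 ± 0.17, and Uqcrc2 was at 254 and 227 against 145 and rose by 0.88 ± 0.17 (edgeR's quasi-likelihood test, adjusted p = 0.0124 and 0.0451). Ndufa12-ps (1.91 ± 0.26) and Ndufb1-ps (1.07 ± 0.20), the other 2, carry pseudogene names and are uncertain. Uqcrc2 and Cox7a2 were higher in both TruSeq_second and ISML_third than in ISML_second, and these comparisons share the ISML_second libraries.

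Nuclear genes lay higher in the TruSeq_second libraries in general: 68 of 84 were above the ISML_second library in both, where 35.8% of all genes were, with a median of 0.39 and medians of 0.37, 0.53, 0.48, 0.31 and 0.48 for complexes I to V. None passed once replicate 2, the library with many genes detected, was left out. The 6 abundant mitochondrial genes did not move as one, since mt-Nd1 was at 1059 and 2019 CPM in the TruSeq_second libraries and 1481 in the ISML_second one. The TruSeq_second values lie on either side of it. All 7 endoderm markers tested were below 0 here too (median -1.82), and their part was not tested.

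Over all 26 libraries, the nuclear genes were far from constant. The counts that follow are of these genes alone, without the share of all genes, so they show no trait particular to them. Of 78 with a mean of at least 100 counts, 77 differed by at least 1.5-fold between the highest and the lowest library, 60 by at least 2-fold, 30 by at least 3-fold and 14 by at least 5-fold, with a median of 2.56-fold. The steadiest gene varied 1.29-fold. A few libraries hold most extremes: replicate 1 of InvClone1 at 120h had the lowest value for 30 genes, replicate 2 of InvClone1 at 144h the lowest for 20 and the highest for 19, and replicate 2 of InvClone1 at 120h the highest for 33. For 12 genes the lowest value was in replicate 1 of InvClone1 at 120h and the highest in replicate 2 of InvClone1 at 144h, and for 1 gene the reverse. Sdha, the catalytic subunit of complex II, ran from 243 to 403 CPM (1.66-fold) and Atp5b from 1085 to 1885 (1.74-fold), while Ndufb7 varied 37.3-fold.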

How the data were processed

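Polyadenylated RNA was sequenced in 26 libraries. The authors deposited a table of read counts per gene and a table of FPKM values (fragments scaled to transcript length and depth, by Cufflinks). Per the submitters' processing notes reads were trimmed with cutadapt 1.18, aligned to mm10 with STAR 2.7.10a and quantified with Cufflinks 2.2.1. The counting program's version, its strand setting and the annotation could not be found in the labels or headers used here. Of the deposited columns, 8 matched no sample and were not used.

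Counts were tested with edgeR 4.0.16 (R 4.3.3; TMM scaling, filter at a minimum count of 10, robust quasi-likelihood F-test, Benjamini-Hochberg adjustment over all genes tested, threshold 0.05). Stages were fitted with line as a term, and all other comparisons in a fit of 26 libraries with group and library name as terms. DESeq2 1.42.0, other scalings and filters, fits without single terms and leaving out libraries were alternatives. The SE is the log2 fold change divided by the square root of F. Scripts were tested on simulated data. Levels are TMM-scaled CPM, and shares are percent of the total count, with a median depth of 22616412. Groups were taken from the labels. The genes named are the mitochondrial members, up to 6 nuclear members in each direction with the smallest adjusted p of those past the threshold, the isoform subunits, and up to 4 genes past the threshold from each other list. Atp5b, Atp5d, Ndufa9, Ndufs7, Sdhb, Sdhc, Uqcr11, Uqcrq, the other genes of the promoter search, those ranked by FPKM and those of fits with a library or line left out were chosen after their values were seen. The members and lists were chosen with earlier results of these data known. Same-numbered Ins and Del libraries deviated together (correlations 0.696, 0.485 and 0.847). Those of InvClone1 and Ins had correlations of 0.226, 0.526 and 0.132. Replicate 3 of Ins and replicate 4 of InvClone1, which share the name ISML_second but not the number, had 0.656. Replicates 1 and 2 of Ins and Del share the name ISML_first, and replicate 3 of both is ISML_second. Within ISML_first, differently numbered libraries had correlations of -0.011 (Ins 1 with Del 2) and 0.328 (Ins 2 with Del 1).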

Additional observations from a re-analysis of the deposited data

Results flagged for a closer look

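Samples were compared within groups of 4 to 5 libraries for a set of member genes and ratios, and 19 of 81 combinations of group and measure had 1 library far from the others. Chance flags about 1 in 20 groups when these are independent, but the measures here share libraries, and 14 of the 19 come from 1 library.

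Among the 4 libraries of InvClone1 at 120h, replicate 1 stood low for Cox6a1 (33.9 CPM, others 87.0 to 96.4) and for Ndufb7 (4.99 CPM, others 55.8 to 64.0). Replicate 2 stood low for the log2 ratio of mitochondrial to nuclear counts (-1.02, others 0.143 to 0.225).

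Among the 5 ISML_second libraries at 120h, InvDel7to10 stood high for mt-Co2 (3.28 CPM, others 1.55 to 1.92), and Del stood high for mt-Nd6 (14.3 CPM, others 7.64 to 9.46).

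Among the 5 ISML_second libraries at 144h, InvClone1 stood apart in 14 measures. It was low for the log2 ratio of mitochondrial to nuclear counts (-3.63, others -0.471 to 0.155) and for mt-Atp8 (0 CPM, others 0.598 to 0.739). It was low for Uqcrb (31.0 CPM, others 58.8 to 64.7), Uqcrc2 (84.4, others 148 to 157), Cox7a2 (47.4, others 73.4 to 80.4), Ndufa4 (67.2, others 114 to 128) and Atp5md (35.1, others 54.4 to 62.2). It was high for Ndufb7 (186 CPM, others 48.9 to 58.4), Ndufa2 (120.3, others 50.5 to 55.1), Ndufa11 (72.9, others 53.8 to 56.6), Ndufv1 (173, others 97.2 to 111), Atp5e (166, others 67.9 to 74.8), Cox6a1 (121, others 91.4 to 99.4) and Uqcrc1 (248, others 171 to 187).

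From 120h to 144h the mitochondrial share of InvClone1 changed by -0.948 percentage points between its ISML_second libraries and by 0.0875 between its ISML_third libraries, with 1 library per stage and name. The difference between these changes was not tested.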

How the results depend on the processing

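No gene or value past its threshold changed sign under an alternative. Without the 2 libraries that stood apart, the mitochondrial median for ISML_third against ISML_second, which was not called, went from 1.59 to -0.33. Of the alternatives for the genes followed 235 gave the same call, 41 lost it and 14 gained it. The counts that follow are of the 94 genes alone, without the share of all genes in each setting. They therefore show no change particular to these genes. At 144h against 120h 2 of the 94 genes passed, against 4 with DESeq2, 1 with DESeq2 size factors, 1 with a minimum count of 50, 4 without the line term, 0 to 17 with 1 line left out and 17 without the 2 libraries that stood apart. For InvClone1 against Ins 0 became 4 with no filter and 0 to 13 with 1 library left out. For InsDel7to10 against InsDel5to10 0 became 10 with no filter and 0 to 19 with 1 library left out. For InsDel5to10 against InvClone2 0 became 12 with no filter. For InsDel7to10 against InvClone2 0 became 2 with no filter and 0 to 8 with 1 library left out. For ISML_second against ISML_first 3 became 11 with DESeq2, 19 with no filter, 7 without the 2 libraries that stood apart and 0 to 2 with 1 library left out. For ISML_third against ISML_second 45 became 27 without these 2 libraries and 31 to 49 with 1 library left out. For TruSeq_second against ISML_second 4 became 18 with DESeq2, 31 with no filter, 0 without these 2 libraries and 0 to 23 with 1 library left out. The mitochondrial median minus the nuclear median for InvClone1 against Ins was -0.53 (-3.61 to -0.014 with 1 library left out). For ISML_third against ISML_second it was 1.92 (0.012 to 3.91, and 0.012 without the 2 libraries). For TruSeq_second against ISML_second it was -0.09 (-0.70 to 3.17). The cause of these changes was not tested.

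With the replicate number as a block, 19 nuclear genes passed for InsDel5to10 against InvClone2. The share of all genes that passed in that fit is not given here, so this count is not set against it. Same-numbered libraries of these lines deviated together (correlation 0.526). With 2 libraries per group both pairs give the same value, so it counts once. The labels do not give what the number stands for. The replicate block changed no other count: 0 passed for the other 4 line comparisons. For InsDel7to10 the correlation was -0.218 with InsDel5to10 and -0.351 with InvClone2, and a crossed pairing chosen after seeing the data gave 0 and 0 calls. FPKM values could not be used for the ratio of mitochondrial to nuclear genes, since the mitochondrial genes are listed at 0. Groups with 1 library, and the mean of 11.4 to 106 counts of the low mitochondrial genes, limit what can be shown. Where leaving out a library leaves 1 in a group, its spread is assumed to be that of the other groups.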
